A study of Arabis alpina with 19 samples.

Results

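The first week after the youngest sampling of the perennial stem of Arabis alpina, from 4 to 5 weeks of age, was followed here in 6 of the 19 RNA sequencing libraries of a stem series. The 6 libraries are those that the labels give as I_PZ (4 weeks, 3 libraries) and II_PZ (5 weeks, 3 libraries). Both groups, like all others in the series, carry the pep1-1 mutation, named for perpetual flowering, and no wild-type stem or treatment entered the comparison. Each library came from whole first internodes of the perennial zone (PZ) of lateral stems, taken at the first and second nodes of the main axis, and the design text gives 12 plants per replicate. The other groups served only to place the changes in time: III_PZ (7 weeks) and IV_PZ (30 weeks) are the same internode when older, and IV_AZ_si and IV_AZ_if are a short internode and an internode near the inflorescence of the annual zone (AZ) at 30 weeks.

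Arabis alpina is a perennial relative of Arabidopsis. Its lateral stems divide into a lower perennial zone, which thickens through cambial growth, stores reserves and survives to the next season, and an upper annual zone, which bears the flowers and dies after seed set. PEP1 is a repressor of flowering, so the mutant flowers without a cold period. Cytokinins, which the title of the series names, are known to promote cambial divisions and thickening of stems.

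Abundance was given for 34220 targets, the transcript models that reads were assigned to, as an estimated count and as TPM, a level that takes length into account and sums to the same total in every library. The files used here give no gene names or functions beside these identifiers, so targets are given by identifier alone, and no pathway or cell type marker could be looked up. A whole internode is a mixture of cell types, in which more cells of a type and more RNA per cell cannot be told apart. Estimated counts came to 23377664, 26287920 and 23558766 in I_PZ replicates 1, 2 and 3 and to 21032841, 24463661 and 22849426 in II_PZ. Replicates differed by more than counting error, and the chi-square statistic divided by its degrees of freedom was at least 3.63 for any pair. Because 6734 targets are under 300 bases and some have an effective length of a few bases, such targets held 26.9% to 30.2% of the TPM in these libraries, but a mean of only 1.28% of the estimated counts.

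One library of each age stood apart, and results are therefore given with and without them. I_PZ replicate 3 held transcripts that are abundant in III_PZ and that were near 0 in I_PZ replicates 1 and 2. Among 57 targets of at least 300 bases, chosen for at least 50 TPM in III_PZ and at most 0.5 TPM in I_PZ replicates 1 and 2, it held a median of 10.9% of the III_PZ level, with quartiles of 9.75% and 12.1% and a range of 1.43% to 59.9%. None of the 57 was at 0 in I_PZ replicate 3, and 54 reached at least 5% of the III_PZ level. Among the 24 targets that were at most 0.5 TPM in all II_PZ libraries as well, at any length, the median in I_PZ replicate 3 was 10.9%. These 24 were chosen by the same limits in III_PZ and I_PZ and overlap the 57, so they are no separate check.

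The 5-week libraries held only some of these 57 targets, and to unequal degrees. II_PZ replicate 3 held a median of 1.14% of the III_PZ level, with 17 targets at 0, 13 at 5% or more and a highest value of 19.5%. II_PZ replicate 1 had a median of 0.287% and a highest value of 5.21%, and II_PZ replicate 2 had a median of 0.0238% and a highest value of 1.52%. The order of the 5-week libraries was thus replicate 3, replicate 1, replicate 2. The 17 targets with at least 3% of the III_PZ level in II_PZ replicate 3 were mostly low again at 30 weeks: their median in IV_PZ was 0.622% of the III_PZ level, and 15 of 17 were under 5%. For the 40 other targets the median in IV_PZ was 14.6%, and 15 of 40 were under 5%. In I_PZ replicate 3 both parts of the list lay at similar medians, 11.8% and 10.8%.

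**Figure D1:**
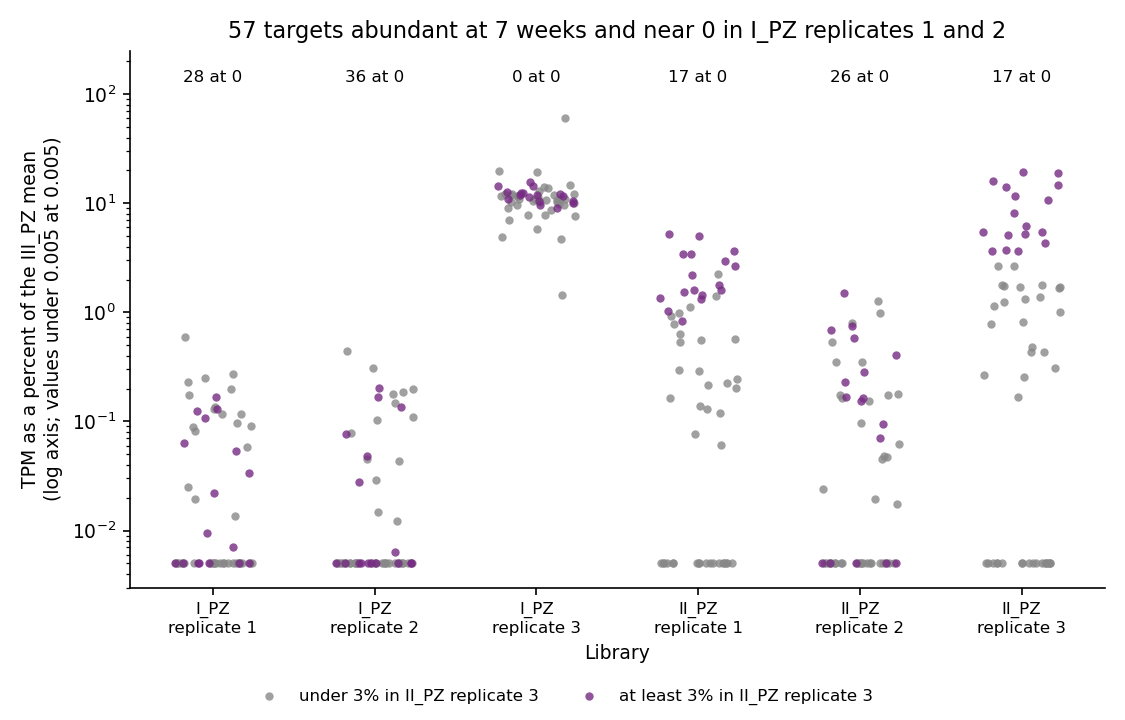
Level of 57 targets abundant at 7 weeks in each 4-week and 5-week library, as a percent of the III_PZ mean on a log axis; each point is a target, and the number at 0 stands above each library. In I_PZ replicate 3 the points lie between 1.43% and 59.9% with quartiles of 9.75% and 12.1%, in II_PZ replicate 1 between 0 and 5.21% with quartiles of 0 and 1.41%, and in II_PZ replicate 3 between 0 and 19.5% with quartiles of 0 and 3.72%; the colour marks the 17 targets with at least 3% in II_PZ replicate 3.

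The transcript pool moved by a modest share between the ages. This share is the percentage of TPM that 2 libraries assign to different targets. It averaged 14.4% over the 9 pairs of an I_PZ and a II_PZ library, against 5.55% between I_PZ replicates and 9.77% between II_PZ replicates. An exact permutation test of the difference between these means, two-sided over 3 against 3 libraries, gave p = 0.1, the smallest it can give. I_PZ replicates 1 and 2 differed from each other by 4.24%, and from I_PZ replicate 3 by 6.46% and 5.95%. From the 5-week libraries, I_PZ replicates 1, 2 and 3 differed by means of 14.7%, 14.8% and 13.8%. II_PZ replicates 1 and 2 differed from each other by 6.46%, and from II_PZ replicate 3 by 10.5% and 12.4%. II_PZ replicate 3 was farthest from the 4-week libraries, at a mean of 18.7%, while II_PZ replicates 1 and 2 differed from them by 12.8% and 11.8%. Replicate 3 was at the same time nearer to III_PZ, at 28.1% against 30.6% and 31.1%, and nearer to IV_AZ_si, at 26.0% against 29.3% and 29.5%. The 5-week libraries lay at like distances from IV_AZ_if, with means of 20.8%, 20.2% and 20.2%, below the 23.6% to 24.9% of the 4-week libraries. I_PZ replicate 3 was nearer to III_PZ than its group mates, at 31.9% against 33.9% and 34.1%.

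**Figure D2:**
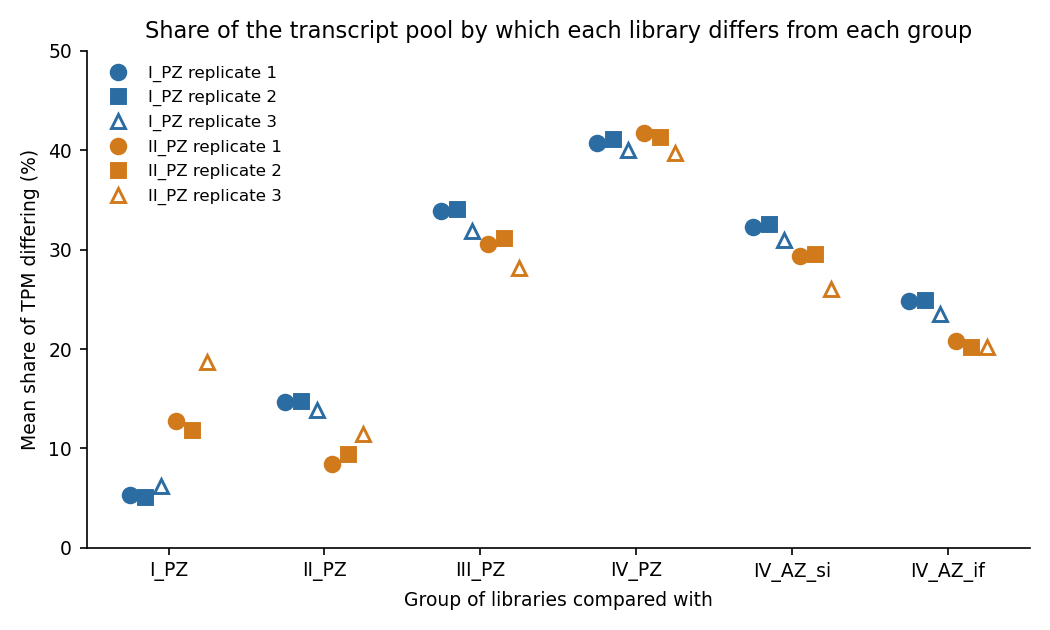
Mean share of the TPM by which each of the 6 libraries differs from the libraries of each group, in percent; colours mark the age and open triangles replicate 3, and the mean to a library's own group leaves out the library itself. II_PZ replicate 3 lies apart from its group mates, at 18.7% from I_PZ and 28.1% from III_PZ, and the 5-week libraries lie below the 4-week libraries against IV_AZ_if.

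The 5-week libraries had fewer detected targets and a more concentrated pool than the 4-week libraries. In I_PZ replicates 1, 2 and 3, 24779, 24637 and 24984 targets had a count, and in II_PZ 24111, 24438 and 23855. The groups did not overlap, and the mean difference was -665 targets, or -573 without I_PZ replicate 3. The 100 most abundant targets took 20.2%, 20.1% and 19.7% of the TPM at 4 weeks and 23.7%, 22.4% and 25.9% at 5 weeks, a mean difference of 4.01 percentage points, or 3.86 without I_PZ replicate 3. Both differences gave p = 0.1 in two-sided exact permutation tests, the smallest possible with 3 against 3. Much of the gain of the 100 most abundant targets lay in 2 of them, described below. Aa_G1107360.h1, of only 165 bases, went from a mean of 11493 to 33965 TPM, and Aa_G331030.h1 from 3756 to 11028 TPM. At a threshold of 1 TPM the mean difference in detected targets was -277, and -130 without I_PZ replicate 3.

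Between 4 and 5 weeks 3789 targets changed, 2194 upward and 1595 downward, at an adjusted p under 0.05 in edgeR's quasi-likelihood test. This was 16.1% of the 23528 targets tested, 9.33% higher and 6.78% lower. Some identifiers that differ only in their ending had equal values and were each counted. Aa_G1027060.h1 and Aa_G1027060.h2, for example, both had means of 23.4 TPM at 4 weeks and 80.5 TPM at 5 weeks. Most steps were small, with a median log2 fold change of 0.58 among the rises and -0.54 among the falls. At least 2-fold changes numbered 528 rises and 179 falls (2.24% and 0.761% of those tested, 3.0% together), at least 4-fold changes 138 and 70, and at least 8-fold changes 51 and 39. For 36.7% of the tested targets the libraries of the groups did not overlap in CPM, with I_PZ replicate 3 included. Some targets fail to overlap by chance with 3 against 3 libraries, and no reference share was computed. The direction of the majority depended on the scale: size factors that follow the TPM scale gave 1516 higher and 2250 lower, the median of all targets moved by -0.08, and limma-trend on log2(TPM + 1) gave 1492 and 2445.

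Leaving out I_PZ replicate 3 changed which targets were called more than how many. Without it 3414 targets passed, 1982 higher (8.29%) and 1432 lower (5.99%), together 14.3% of 23904 tested. At least 2-fold were 640 rises and 143 falls (2.68% and 0.598%, 3.28% together). The at least 8-fold changes shifted to 81 rises and 17 falls. The fits had 3021 calls in common in the same direction, 1693 rises and 1328 falls. Another 767 passed only with the library and 392 only without it. Aa_G284130.h1, described next, is counted in neither. The 392 were 288 rises and 104 falls, and I_PZ replicate 3 was the highest 4-week library in 287 and the lowest in 103, which the choice of these targets largely fixes. The III_PZ mean was above both younger means in 75.3% of the 392, in 45.6% of the 767 and in 52.6% of all tested targets. On the TPM scale the calls without I_PZ replicate 3 were 1597 higher and 1642 lower.

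A single target, Aa_G284130.h1, was called in opposite directions by the fits, and it is named for that after its values were seen. It had 0.0312, 0.0281 and 6.36 TPM in I_PZ and 0.173, 0.0929 and 0.0944 TPM in II_PZ, so that I_PZ replicate 3 was far above every other library. The fitted log2 fold change was -4.03 with that library (edgeR adjusted p = 0.0355) and 1.99 without it (edgeR adjusted p = 0.0481). The level in III_PZ was 33.6 ± 2.16 TPM (SD, n = 3). Its call was also lost without each II_PZ library in turn, at adjusted p values of 0.0774, 0.0974 and 0.129 in edgeR.

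**Figure D3:**
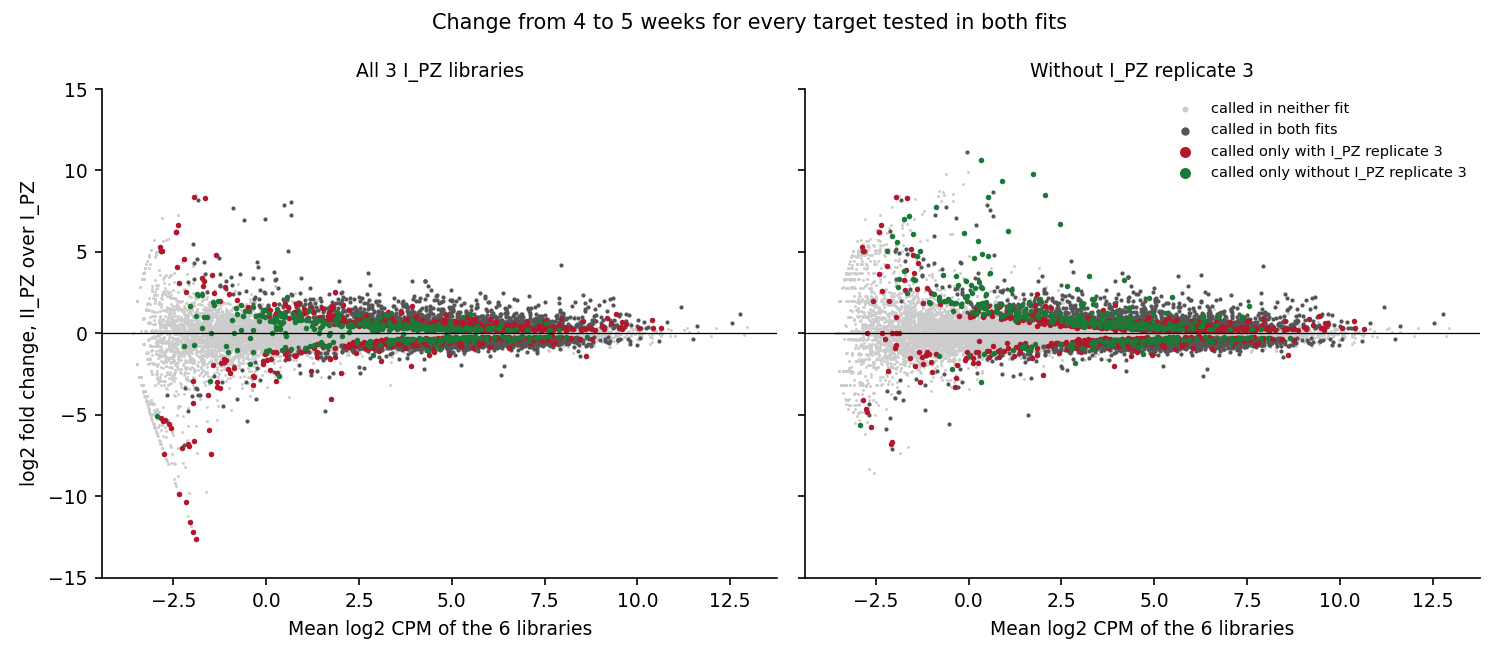
log2 fold change from I_PZ to II_PZ against the mean log2 CPM (counts scaled to library size) of the 6 libraries for every target tested in both fits, with all libraries at left and without I_PZ replicate 3 at right; grey points passed in neither fit, dark points in both. The red points are the calls made only with I_PZ replicate 3 and the green points those made only without it. Fold changes of targets with almost no count in a group depend on the fit's prior count.

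II_PZ replicate 3 carried the change furthest. Of the 2194 rises it was the 5-week library farthest from the I_PZ mean in 76.7%, and of the 1595 falls in 76.6%. The median log2 ratio to the I_PZ mean among the rises was 0.44 in replicate 1, 0.39 in replicate 2 and 0.63 in replicate 3. Among the falls it was -0.51, -0.53 and -0.75. All 3 libraries thus lay on the same side in the median. These ratios and shares describe lists chosen on the same libraries. The share over all tested targets was not computed, so the shares cannot be called particular to the called targets. Without I_PZ replicate 3 the shares were 80.4% of the rises and 77.9% of the falls. Leaving out II_PZ replicate 3 lowered the calls to 1932, 1156 higher and 776 lower, of which 1895 were among the 3789. All 3789 kept the sign of their fold change. Because the 3789 were chosen on the libraries kept as well, this choice favours the overlap and the kept signs. Without both replicates 3 the fit called 1951 targets, 1174 higher and 777 lower, and 1815 of them were among the 3789.

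The 6 largest rises, among targets that passed with and without I_PZ replicate 3 and did not overlap between the ages, were nearly absent at 4 weeks. Aa_G601480.h1 had 0.0972, 0 and 0.133 TPM in I_PZ and 9.89, 2.60 and 46.0 TPM in II_PZ. Every 5-week library was above every 4-week library, and the 5-week libraries themselves spread widely. The log2 fold change was 8.08 ± 1.51 (SE; edgeR adjusted p = 0.00282) and 8.68 ± 1.94 (SE; edgeR adjusted p = 0.00983) without I_PZ replicate 3. Leaving out I_PZ replicate 2 gave 7.47, and leaving out II_PZ replicate 3 gave 6.40. Aa_G601480.h1 was at 0 TPM in III_PZ and IV_PZ and at 6.98 ± 6.11 TPM (SD, n = 4) in IV_AZ_si.

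Aa_G505620.h1 ran the same course, with 0.117, 0.106 and 0.120 TPM in I_PZ and 11.4, 4.48 and 64.8 TPM in II_PZ. The rise had a log2 fold change of 7.91 ± 1.51 (SE; edgeR adjusted p = 0.00323), 7.90 without I_PZ replicate 3 and 6.11 without II_PZ replicate 3. It too was at 0 TPM in III_PZ and IV_PZ, and IV_AZ_si held 5.03 ± 5.00 TPM (SD, n = 4). Aa_G264410.h1 had 0.0773, 0.0928 and 0.0794 TPM in I_PZ and 5.56, 1.48 and 29.7 TPM in II_PZ, a log2 fold change of 7.26 ± 1.34 (SE; edgeR adjusted p = 0.00146). With I_PZ replicate 3 left out that was 7.19, and without II_PZ replicate 3 it was 5.42. In III_PZ Aa_G264410.h1 was at 0.153 ± 0.0613 TPM (SD, n = 3), and in IV_AZ_si at 4.93 ± 4.604 TPM (SD, n = 4).

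The 3 remaining targets of this group rested on few counts at 4 weeks. Aa_G216040.h1, which shares reads with other targets, had 1 count in I_PZ, in replicate 1, and 2.96, 1.69 and 11.05 TPM in II_PZ. The ratio of pooled CPM, counts scaled to library size, was 270, with a 95% exact interval of 48.0 to 10706 that covers counting error only (edgeR adjusted p = 0.000259, and 0.00108 without I_PZ replicate 3). The log2 fold change of 7.70 became 6.50 without II_PZ replicate 3, and without I_PZ replicate 1, which held the count, none was left at 4 weeks. Aa_G216040.h1 was at 5.28 ± 0.94 TPM (SD, n = 4) in IV_AZ_si. Aa_G199030.h1 had 3 counts in I_PZ and 3.28, 0.965 and 13.1 TPM in II_PZ, a ratio of 131 with an interval of 44.4 to 637 (edgeR adjusted p = 0.00229, and 0.00744 without I_PZ replicate 3). The log2 fold change of Aa_G199030.h1, 6.94, was 7.78 with I_PZ replicate 3 left out and 5.46 with II_PZ replicate 3 left out. Its later means ran from 0.162 TPM in IV_AZ_if to 0.457 TPM in IV_AZ_si.

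Aa_G43910.h1 differed from these in its later course. It was at 0, 0 and 0.187 TPM in I_PZ and at 3.36, 1.60 and 18.1 TPM in II_PZ, a log2 fold change of 7.04 ± 1.38 (SE; edgeR adjusted p = 0.00222). Without I_PZ replicate 3 no count remained at 4 weeks, and the 5-week level was at least 180-fold higher, taking 3 counts over I_PZ as the floor (edgeR adjusted p = 0.00573). On the log2 scale the change was 6.44 when I_PZ replicate 2 was left out and 5.37 when II_PZ replicate 3 was. This target fell to 1.30 ± 0.145 TPM in III_PZ and stood at 9.34 ± 2.098 TPM in IV_PZ (SD, n = 3 each). All 6 of these rises were highest in II_PZ replicate 3 and lowest in II_PZ replicate 2, and all 6 stayed called when any 1 library was left out.

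The 6 largest falls chosen in the same way were smaller than the 6 largest rises. Aa_G199990.h1 had 6.74, 22.3 and 8.86 TPM in I_PZ and 0.294, 0.757 and 0.268 TPM in II_PZ. The log2 fold change was -4.75 ± 0.69 (SE; edgeR adjusted p = 0.000325) and -4.98 without I_PZ replicate 3. Leaving out I_PZ replicate 2, its highest library, gave -4.05, and leaving out II_PZ replicate 2 gave -5.37. At 7 weeks Aa_G199990.h1 was back at 7.42 ± 0.503 TPM (SD, n = 3), and at 30 weeks its means were 0.0923, 0.0781 and 0.147 TPM in IV_PZ, IV_AZ_si and IV_AZ_if.

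Aa_G526040.h1 was the most abundant of the large falls, with 133, 148 and 115 TPM in I_PZ and 30.0, 29.0 and 6.70 TPM in II_PZ. Its log2 fold change was -2.53 ± 0.64 (SE; edgeR adjusted p = 0.0188) and -2.64 (adjusted p = 0.0239) without I_PZ replicate 3. The call was lost without I_PZ replicate 2 (adjusted p = 0.0543 in edgeR) and without II_PZ replicate 3 (adjusted p = 0.0666 in edgeR), and over 21 alternatives the adjusted p ran from 0.00192 to 0.306. Later the perennial zone held almost none of it, with 0.0787 ± 0.136 TPM in III_PZ and 0 in IV_PZ (SD, n = 3), while IV_AZ_if held 19.1 ± 18.5 TPM (SD, n = 3). Aa_G381240.h1 followed a similar course at a lower level, with 4.14, 7.27 and 5.57 TPM at 4 weeks, 1.28, 1.19 and 0.2505 TPM at 5 weeks, and 0 TPM in III_PZ and IV_PZ. On the log2 scale it changed by -2.57 ± 0.54 (SE; edgeR adjusted p = 0.00914), -2.61 (adjusted p = 0.023) without I_PZ replicate 3, and its call was lost without I_PZ replicate 2 (adjusted p = 0.0506 in edgeR).

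Aa_G231640.h1 and Aa_G19040.h1 fell at 5 weeks and were highest at 7 weeks. Aa_G231640.h1 had 3.70, 3.47 and 11.4 TPM in I_PZ and 1.31, 1.14 and 0.814 TPM in II_PZ, with I_PZ replicate 3 well above its group mates. Its log2 fold change was -2.41 ± 0.51 (SE; edgeR adjusted p = 0.00348) and -1.67 ± 0.44 (SE; edgeR adjusted p = 0.0161) without I_PZ replicate 3, and III_PZ held 61.5 ± 14.03 TPM (SD, n = 3). Aa_G19040.h1 had 6.62, 10.1 and 14.8 TPM in I_PZ and 1.60, 2.94 and 1.09 TPM in II_PZ. The log2 change was -2.40 ± 0.51 (SE; edgeR adjusted p = 0.00394) and -2.11 (adjusted p = 0.0131) without I_PZ replicate 3, and III_PZ held 28.8 ± 10.3 TPM (SD, n = 3). The calls of Aa_G231640.h1 and Aa_G19040.h1 were lost without both replicates 3 (adjusted p = 0.069 and 0.0627 in edgeR). Aa_G400990.h1, which shares reads with other targets, went from 14.97, 18.1 and 16.1 TPM to 0, 4.34 and 2.89 TPM, a log2 fold change of -2.67 ± 0.67 (SE; edgeR adjusted p = 0.0111; 0.0187 without I_PZ replicate 3). Without II_PZ replicate 2 that was -3.36.

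**Figure D4:**
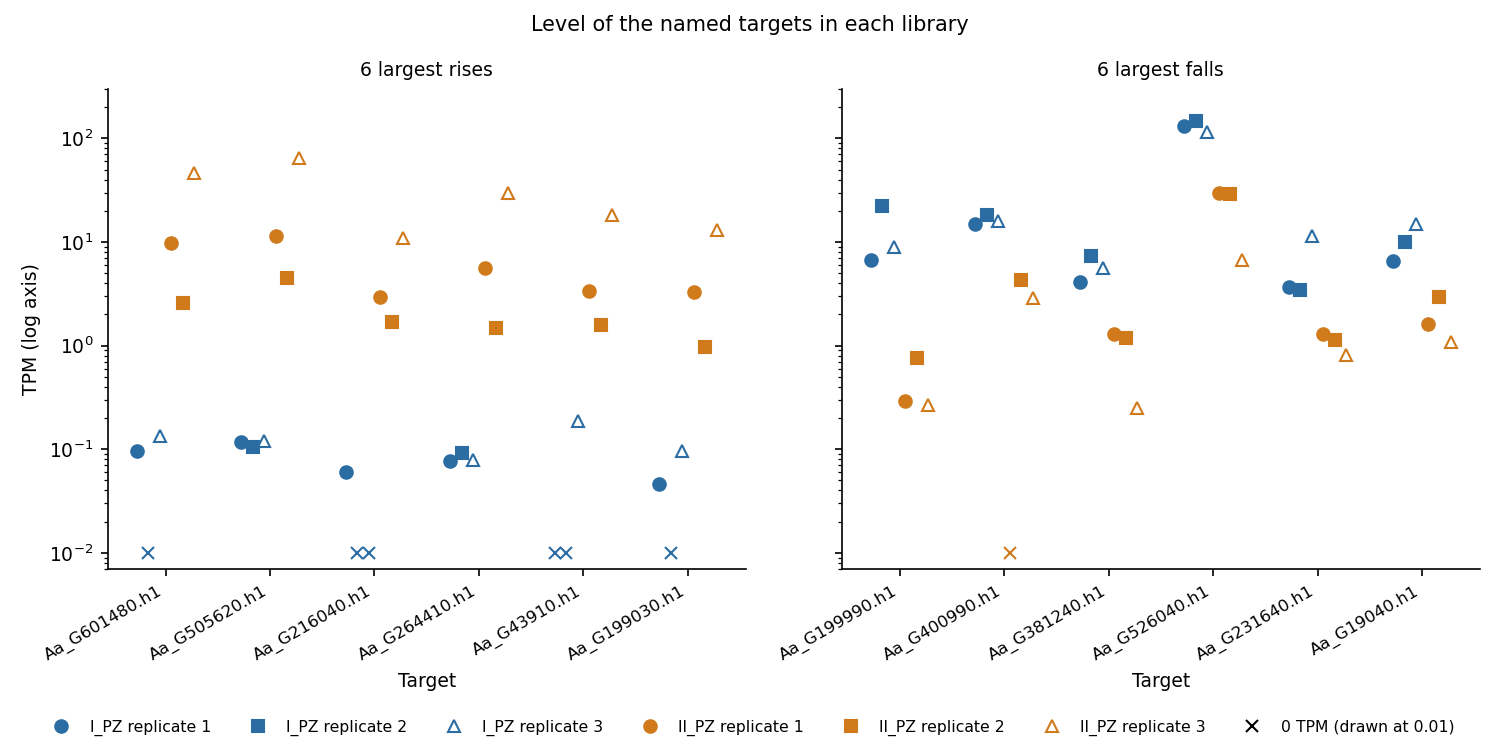
TPM of the 6 largest rises and the 6 largest falls in each library, on a log axis; blue is I_PZ, orange is II_PZ, open triangles are replicate 3, and crosses are values of 0 drawn at 0.01. The 4-week and 5-week libraries do not overlap for any of the 12 targets, as the rule for naming required, and II_PZ replicate 3 is the highest library in all 6 rises.

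The largest gains in transcript abundance fell on a few very abundant targets. Aa_G1107360.h1, a target of 165 bases, rose from 11278, 12187 and 11013 TPM to 32793, 24165 and 44936 TPM. Its effective length is only 8.65 bases, so that its TPM is high for its counts, which were 3775 to 4768 in I_PZ and 8577 to 15697 in II_PZ. The log2 fold change was 1.65 ± 0.34 (SE; edgeR adjusted p = 0.00295) and 1.59 (adjusted p = 0.0106) without I_PZ replicate 3. Aa_G331030.h1, with 402 bases, moved alongside it, from 3434, 4046 and 3787 TPM to 10189, 7949 and 14945 TPM. The estimated counts of Aa_G331030.h1 per count of Aa_G1107360.h1 stayed between 7.15 and 8.07 in the 6 libraries. Its log2 fold change was 1.65 ± 0.39 (SE; edgeR adjusted p = 0.00775), 1.62 (adjusted p = 0.0239) without I_PZ replicate 3, and its call was lost without II_PZ replicate 3 (adjusted p = 0.0524 in edgeR). Both targets held about this level at 7 weeks, with 29777 ± 7110 and 10381 ± 2516 TPM (SD, n = 3 each), and lower levels at 30 weeks, with 4287 ± 584 and 1484 ± 130 TPM in IV_PZ (SD, n = 3 each).

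Aa_G499040.h1 combined a large fold with high abundance. This target of 336 bases, which shares reads with others, had 283, 223 and 235 TPM at 4 weeks and 3747, 2544 and 6300 TPM at 5 weeks. All 5-week libraries stood far above the 4-week ones, and the log2 fold change was 4.18 ± 0.36 (SE; edgeR adjusted p = 4.5e-06), 4.11 without I_PZ replicate 3 and 3.74 without II_PZ replicate 3. It was then down to 421 ± 135 TPM in III_PZ and 1.58 ± 1.49 TPM in IV_PZ (SD, n = 3 each). In the annual zone it was among the abundant transcripts, with 12368 ± 263 TPM (SD, n = 4) in IV_AZ_si and 10642 ± 1109 TPM (SD, n = 3) in IV_AZ_if.

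The same course, up at 5 weeks, down in the older perennial zone and high in both annual internodes, was seen for 3 other abundant rises. Aa_G156070.h1 had 318, 375 and 316 TPM in I_PZ and 898, 837 and 1386 TPM in II_PZ, a log2 fold change of 1.72 ± 0.28 (SE; edgeR adjusted p = 0.0007; 1.64 without I_PZ replicate 3). It had 3.23 ± 1.93 TPM in IV_PZ and 2120 ± 429 TPM in IV_AZ_if (SD, n = 3 each). Aa_G451910.h1 had 212, 214 and 238 TPM in I_PZ and 686, 716 and 1151 TPM in II_PZ, a log2 fold change of 2.03 ± 0.43 (SE; edgeR adjusted p = 0.0039; 2.05 without I_PZ replicate 3). Its mean was 14.6 ± 12.99 TPM in IV_PZ and 1990 ± 443 TPM in IV_AZ_if (SD, n = 3 each). The short target Aa_G435120.h1, of 204 bases, went from 1027, 935 and 1023 TPM to 2128, 1800 and 2559 TPM (log2 fold change 1.21 ± 0.23, SE; edgeR adjusted p = 0.00201; 1.20 without I_PZ replicate 3), and to 328 ± 101 TPM in IV_PZ (SD, n = 3).

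Other abundant rises took other courses. Aa_G117410.h1 had 3264, 3195 and 3472 TPM in I_PZ and 6640, 6025 and 8803 TPM in II_PZ, with tight 4-week libraries and a log2 fold change of 1.20 ± 0.14 (SE; edgeR adjusted p = 7.89e-05; 1.20 also without I_PZ replicate 3). It was back near its 4-week level in IV_PZ, at 3358 ± 341 TPM (SD, n = 3). Aa_G556440.h1 had 1998, 2091 and 2219 TPM in I_PZ and 2939, 2948 and 3510 TPM in II_PZ, a log2 fold change of 0.66 ± 0.10 (SE; edgeR adjusted p = 0.000323; 0.67 without I_PZ replicate 3), and 3729 ± 74.2 TPM (SD, n = 3) in IV_PZ. Aa_G186250.h1 climbed further with age, from 332, 314 and 468 TPM at 4 weeks to 756, 845 and 1070 TPM at 5 weeks and 2058 ± 210 TPM (SD, n = 3) at 7 weeks. Its log2 fold change to 5 weeks was 1.35 ± 0.17 (SE; edgeR adjusted p = 0.00014) and 1.52 without I_PZ replicate 3. Aa_G220660.h1 rose least, from 1976, 2040 and 1941 to 2546, 2594 and 2696 TPM (log2 fold change 0.48 ± 0.12, SE; edgeR adjusted p = 0.0106; 0.43 and 0.039 without I_PZ replicate 3), and lost its call without II_PZ replicate 3 (adjusted p = 0.0525 in edgeR).

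The falls with the largest loss of TPM were in short targets and were small in fold. The 6 of them, with lengths of 180 to 324 bases, were Aa_G47230.h1, Aa_G331430.h1, Aa_G268380.h1, Aa_G158740.h1, Aa_G337200.h1 and Aa_G351980.h1, and their log2 fold changes ran from -0.97 to -0.48. Aa_G47230.h1 went from 2999, 2979 and 2555 TPM to 2006, 1755 and 1255 TPM (log2 fold change -0.69 ± 0.18, SE; edgeR adjusted p = 0.0157). Aa_G351980.h1, which shares reads, went from 1090, 1107 and 949 TPM to 704, 663 and 502 TPM (log2 fold change -0.67 ± 0.11, SE; edgeR adjusted p = 0.000835). With I_PZ replicate 3 left out these were -0.79 and -0.77. Aa_G158740.h1 and Aa_G351980.h1 stayed called when any 1 library was left out. Each of the other 4 lost its call without at least 3 of the libraries in turn, II_PZ replicate 3 among them, at adjusted p values up to 0.177 in edgeR.

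Longer targets with a large loss of TPM showed the same small folds. Aa_G183480.h1 went from 794, 792 and 752 TPM to 513, 529 and 354 TPM (log2 fold change -0.67 ± 0.13, SE; edgeR adjusted p = 0.00246; -0.72 without I_PZ replicate 3) and on to 247 ± 4.17 TPM (SD, n = 3) in III_PZ. Aa_G16200.h1 went from 656, 709 and 727 TPM to 424, 501 and 308 TPM (log2 fold change -0.69 ± 0.19, SE; edgeR adjusted p = 0.0212; -0.68 and 0.0413 without I_PZ replicate 3), then to 126 ± 6.37 TPM in III_PZ and 34.7 ± 4.01 TPM in IV_PZ (SD, n = 3 each). Its call was lost without I_PZ replicate 2 and without II_PZ replicate 3 (adjusted p = 0.0641 and 0.124 in edgeR). Aa_G85370.h1, which shares reads, dipped from 1015, 1038 and 1097 TPM to 797, 821 and 735 TPM (log2 fold change -0.34 ± 0.08, SE; edgeR adjusted p = 0.00833; -0.34 without I_PZ replicate 3) and reached 3496 ± 158 TPM (SD, n = 3) in IV_PZ. Aa_G6630.h1, which also shares reads, went from 833, 876 and 810 TPM to 587, 574 and 474 TPM (log2 fold change -0.54 ± 0.10, SE; edgeR adjusted p = 0.00157; -0.60 without I_PZ replicate 3), and IV_PZ held 957 ± 51.4 TPM (SD, n = 3).

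**Figure D5:**
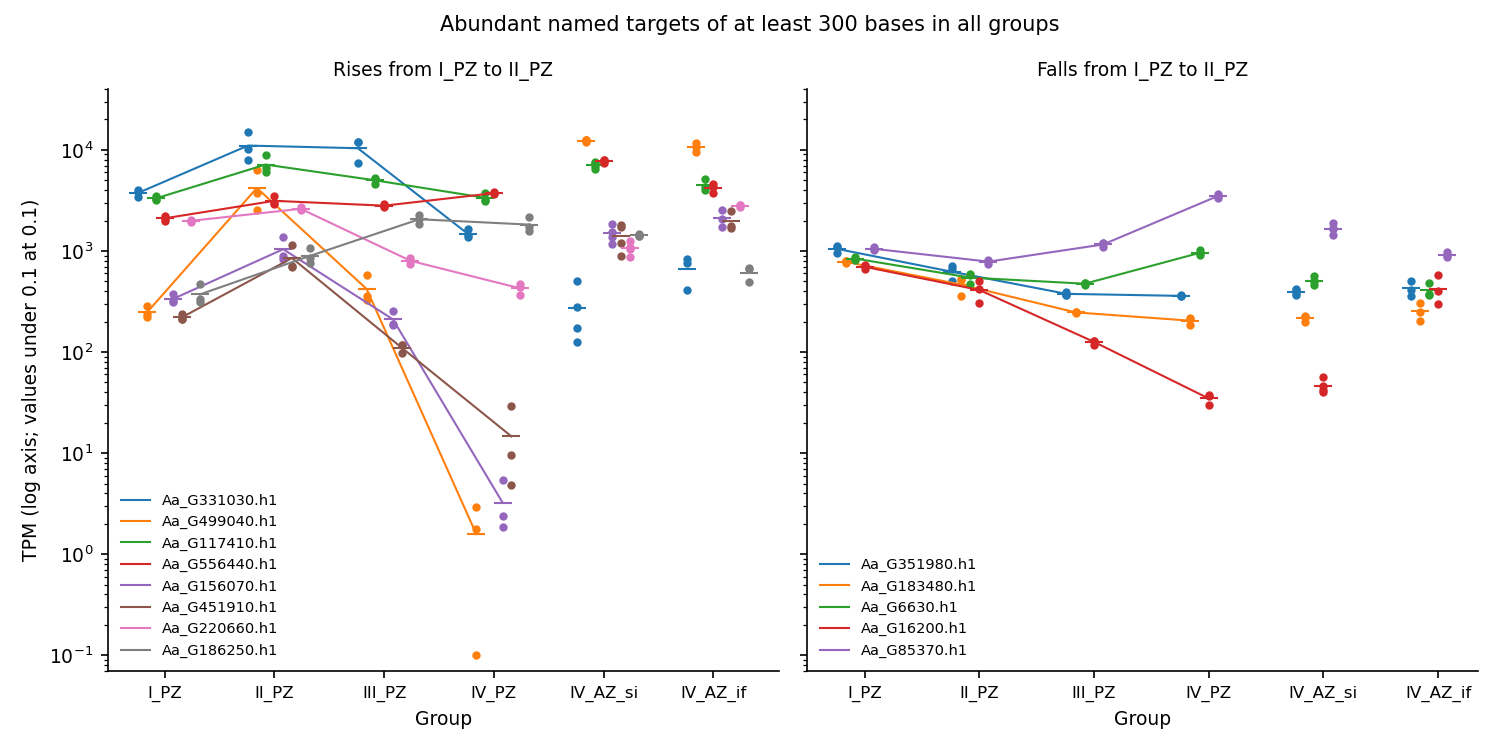
TPM of abundant named targets of at least 300 bases in all 6 groups, on a log axis; points are libraries, dashes are group means, and lines join the ages of the perennial zone. Aa_G499040.h1, Aa_G156070.h1 and Aa_G451910.h1 rise at 5 weeks, drop to 1.58, 3.23 and 14.6 TPM in IV_PZ and are high in both annual internodes, and Aa_G85370.h1 and Aa_G6630.h1 fall at 5 weeks and are highest in IV_PZ.

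Among the 5 most abundant targets of the 6 libraries were also Aa_G253980.h1 and Aa_G392180.h1. Aa_G253980.h1 had 11934, 11074 and 10715 TPM at 4 weeks and 14501, 13992 and 13406 TPM at 5 weeks. The libraries did not overlap in TPM, but its log2 fold change of 0.39 ± 0.16 (SE) did not pass (adjusted p = 0.102 in edgeR, and 0.255 without I_PZ replicate 3). Aa_G392180.h1 had 8981, 8784 and 8752 TPM in I_PZ and 10729, 10860 and 9551 TPM in II_PZ, a log2 fold change of 0.31 ± 0.10 (SE; edgeR adjusted p = 0.0354). That call was lost without any 1 of the 6 libraries, at adjusted p values of 0.0521 to 0.121 in edgeR.

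Calls with the largest fold that needed I_PZ replicate 3 came from that library alone. Aa_G101340.h1, Aa_G766740.h1 and Aa_G207260.h1 had 38.9, 76.2 and 33.8 TPM in I_PZ replicate 3 and no count in the 5 other libraries. Taking 3 counts over II_PZ as the floor, that age was at least 717-, 515- and 346-fold lower (edgeR adjusted p = 0.0148, 0.0248 and 0.0218). Without that library no count was left in either group and no fold can be given. In III_PZ these targets were at 203 ± 20.6, 127 ± 60.1 and 238 ± 20.3 TPM (SD, n = 3 each), and Aa_G766740.h1 and Aa_G207260.h1 share reads with other targets. All 3 calls were also lost without II_PZ replicate 3 (adjusted p = 0.0595, 0.0855 and 0.0786 in edgeR), and those of Aa_G766740.h1 and Aa_G207260.h1 without II_PZ replicates 1 and 2 as well, at adjusted p values of 0.0539 to 0.0609. They cannot be read as falls from 4 to 5 weeks.

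Calls of the reverse kind, made only once I_PZ replicate 3 was left out, were led by Aa_G13250.h1, Aa_G35450.h1 and Aa_G258430.h1. Aa_G13250.h1 had 0, 0 and 24.8 TPM in I_PZ and 6.94, 0.463 and 28.3 TPM in II_PZ. Aa_G35450.h1 had 0.0163, 0 and 26.9 TPM in I_PZ and 3.79, 1.00 and 20.0 TPM in II_PZ. Aa_G258430.h1 had 0.104, 0 and 56.6 TPM in I_PZ and 23.5, 0.723 and 92.0 TPM in II_PZ. In each of them the groups overlapped through I_PZ replicate 3, and II_PZ replicate 2 was lowest of the 5-week libraries. With all libraries they did not pass (adjusted p = 0.768, 0.999 and 0.59 in edgeR). They did when I_PZ replicate 3 was left out (adjusted p = 0.0236, 0.00282 and 0.0217 in edgeR), and Aa_G13250.h1, then with no count at 4 weeks, was at least 126-fold higher. Their means in III_PZ were 202, 172 and 472 TPM, and they belong to the 57 targets described above, so whether they rose at 5 weeks depends on the libraries kept.

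Targets that set II_PZ replicate 3 apart from its group mates were ranked without a test. By the ratio of its TPM to the mean of II_PZ replicates 1 and 2, the leading targets were Aa_G17340.h1, Aa_G1310.h1 and Aa_G204320.h1, at 63.7, 58.8 and 51.4 TPM against 0 in both. These are 102 to 120 bases long and rested on 13, 12 and 9 counts, and none entered the test with all libraries. With at least 50 counts required, the leading targets were Aa_G64190.h1, Aa_G231020.h1 and Aa_G1109670.h2, at 9.50, 25.3 and 79.4 TPM in II_PZ replicate 3. In II_PZ replicate 1 they were at 0, 3.58 and 11.8 TPM, and in II_PZ replicate 2 at 0, 0 and 6.51 TPM. In I_PZ replicate 3 they were at 3.14, 13.97 and 55.6 TPM, and in I_PZ replicates 1 and 2 at 0. Their III_PZ means were 20.0, 134 and 2475 TPM, and Aa_G231020.h1 is one of the 57 targets described above. None of them passed with all libraries (adjusted p = 0.501, 0.603 and 0.624 in edgeR), and Aa_G64190.h1 was most abundant in IV_AZ_si, at 108 ± 85.1 TPM (SD, n = 4).

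Few called targets were wholly absent at an age. Of the 3789, 8 had no count in I_PZ and 15 had none in II_PZ. At 5 TPM or more in the other group these were 1 and 3, the 3 being the targets seen in I_PZ replicate 3 alone. The 1 target was Aa_G1095590.h1, 180 bases long, sharing reads and named here after its values were seen, with 7.29, 9.95 and 56.0 TPM in II_PZ. Aa_G1095590.h1 has an effective length of 11.1 bases and rested there on 2.98, 4.54 and 25.1 estimated counts. It was at least 11.7-fold higher (edgeR adjusted p = 0.0499), but the bound fell to 4.03-fold without II_PZ replicate 3, and the call was lost without that library or any 1 of I_PZ, at adjusted p values of 0.101 to 0.224 in edgeR. When I_PZ replicate 3 was left out, 12 called targets had no count at 4 weeks and 4 had none at 5 weeks. Of the 12, the 3 at 5 TPM or more were Aa_G13250.h1, Aa_G43910.h1 and Aa_G950580.h1, a target of 201 bases that reached 3860 ± 1053 TPM (SD, n = 3) in III_PZ. Aa_G950580.h1 had 119 TPM in I_PZ replicate 3, above the 31.9, 11.5 and 65.5 TPM of II_PZ, which rested on 20, 8 and 45 counts. With all libraries it did not pass (adjusted p = 0.996 in edgeR).

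The later course of the called lists was read from comparisons that share no library with I_PZ or II_PZ. Of the 2194 rises, 660 (30.1%) were higher and 870 (39.7%) lower in IV_PZ than in III_PZ, where 27.3% and 29.3% of all tested targets were (56.5% together). Of the 1595 falls, 718 (45%) were higher and 336 (21.1%) lower. Without I_PZ replicate 3 the rises gave 29.8% and 41.0% and the falls 45.8% and 19.2%, and without II_PZ replicate 3 the rises gave 30.2% and 43.3% and the falls 54.1% and 15.6%. The at least 2-fold rises leaned further, with 95 of 528 (18%) higher and 291 (55.1%) lower in IV_PZ. The at least 2-fold falls did not lean as all falls did, with 37 of 179 (20.7%) higher and 63 (35.2%) lower, and without I_PZ replicate 3 44 of 143 (30.8%) higher and 38 (26.6%) lower. No test of these shares against the background was made.

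Against the annual internode near the inflorescence, the at least 2-fold rises were more often lower than higher in the old perennial zone. Of the 528, 98 (18.6%) were higher and 329 (62.3%) lower in IV_PZ than in IV_AZ_if, where 33.7% and 36.5% of all tested targets were (70.2% together). Without I_PZ replicate 3, 28.6% were higher and 49.6% lower, and without II_PZ replicate 3, 15.5% and 69.6%. Of all 2194 rises 30.7% were higher and 49.0% lower, and without I_PZ replicate 3 36.4% and 43.1%. Of the 1595 falls 41.8% were higher and 33.7% lower, and of the 179 at least 2-fold falls 35.2% and 39.1%. Without I_PZ replicate 3 these shares were 39.6% and 34.9% of all falls, and 29.4% and 42% of the at least 2-fold falls. By group means of TPM, the rises were most often highest in IV_AZ_si (712 targets, 32.5%, against 13.9% of all tested targets), and 177 of them (8.07%, against 5.23%) were highest in II_PZ. The falls were highest in I_PZ in 1097 cases (68.8%, against 21% of all tested targets) and in IV_PZ in 328 (20.6%, against 28.1%). Without I_PZ replicate 3, 30.1% of the rises were highest in IV_AZ_si (against 13.9%). In II_PZ it was then 117 rises, 5.9% against 5.1%, close to the share of all tested targets. The falls were then highest in I_PZ in 74.1% (against 21.2%) and in IV_PZ in 18.3% (against 28%). Because the lists were chosen on I_PZ and II_PZ, the shares for those groups describe the choice in part.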

How the data were processed

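RNA of 19 libraries was sequenced from stranded mRNA libraries, per the labels' protocols. The submitters' processing notes name bcl2fastq and kallisto, with versions and transcript reference not given in the sources used here. The authors, per the file headers, deposited for each library an estimated count and a TPM value per target, with its length and effective length. The deposited TPM is scaled by effective length to a fixed total, so very short targets weigh heavily in it. Lengths were multiples of 3 for 99.5% of targets, as coding lengths are; whether the targets hold untranslated regions was not checked further. A deposited table of the series holds 30158 of the targets with equal TPM.

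Deposited estimated counts were rounded and tested in edgeR 4.0.16 (R 4.3.3; quasi-likelihood test, TMM, minimum count 10, minimum total 15) in a single fit of all 19 libraries by group. Benjamini-Hochberg adjustment ran over all tested targets, and calls needed an adjusted p under 0.05. The standard error of a log2 fold change was taken from the test statistic. Shares of the pool and detected targets were computed with Python 3.11.15 (numpy 2.4.6, pandas 2.3.3, scipy 1.17.1), and the tests were tested on simulated data. Depth limits what can be seen: a group without a count was given a floor of 3 counts, and ratios on 1 to 3 counts a 95% exact interval, both for counting error only. Dropping a library also lowers the bound, since less depth remains. Targets said to share reads are those whose count missed a whole number by over 0.001 in at least 1 library (23.8% of those tested).

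The members, lists and tests were chosen with earlier results of these data known. Named targets were called in the same direction with and without I_PZ replicate 3, reached a mean of 5 TPM at the higher age and did not overlap in CPM (2723 targets). Of these the 6 highest and 6 lowest fold changes were taken, then the 6 largest rises and falls in TPM. Further sets were the 3 largest fold changes called only with I_PZ replicate 3 and only without it, the 3 targets most above their group mates in II_PZ replicate 3, and the 5 most abundant. The 4 largest rises and falls at 500 bases or more, the 3 targets with at least 50 counts in II_PZ replicate 3, the list of 57 targets, its division at 3%, and the counts at 1 TPM were added after the data were examined. The gene lists considered (cytokinin, cambium, xylem, phloem, storage, cell cycle, photosynthesis, other organs) could not be matched to identifiers and were not tested. Alternatives were RLE factors, TPM-scale factors, DESeq2 1.42.0, no filter, the 6 libraries alone, blocking by replicate, limma-trend from limma 3.58.1 on TPM with a pseudocount of 1 or 0.1 before taking log2, targets of the series table, targets without shared reads, and each library left out. The labels speak of biological replicates; nothing else shows that they are independent, so p-values measure the spread between these libraries.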

Additional observations from a re-analysis of the deposited data

How the results depend on the processing

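Leaving out each library in turn gave 1932 to 3686 calls, 1156 to 2176 higher, 776 to 1510 lower and 366 to 807 of at least 2-fold; without II_PZ replicate 3 the calls were fewest. Calls also fell to 2265 without I_PZ replicate 2 and to 2470 without I_PZ replicate 1. Without both replicates 3 there were 1951 calls, 1174 higher, 777 lower and 443 of at least 2-fold. Fewer libraries were tested in each of these. limma-trend on log2(TPM + 0.1) gave 1433 higher, and on log2(TPM + 1) 2445 lower, and TPM-scale factors 1516 higher and 2250 lower; the cause was not tested. DESeq2 called 4466 targets. Counted at 1 TPM, the difference in detected targets was -277 in place of -665. Deviations of same-numbered libraries from their group means correlated at 0.08, 0.19 and 0.29 across targets. I_PZ replicates 2 and 3 correlated best with the II_PZ library of the same number, but I_PZ replicate 1 with II_PZ replicate 2, at 0.18. Whether the replicate numbers pair the samples was not tested, and the main fit treated replicates as independent. The replicate block, in the 6 libraries alone, gave 4687 calls, 2443 higher and 2244 lower, against 4002 without it. Of the 32 targets named for the largest changes in fold or TPM, all 32 kept their direction and 19 their call under every alternative run. They were chosen for calls with and without I_PZ replicate 3 on these same libraries, which favours both counts. The targets that turned direction all had a higher mean in III_PZ than at 4 or 5 weeks. Over single libraries left out, the log2 fold change of Aa_G13250.h1 ran from -1.07 to 10.61, of Aa_G35450.h1 from -1.81 to 9.81, of Aa_G258430.h1 from -0.55 to 9.37, of Aa_G64190.h1 from -6.00 to 7.73, of Aa_G231020.h1 from -1.31 to 9.76, of Aa_G1109670.h2 from -0.90 to 8.45, of Aa_G950580.h1 from -0.77 to 7.78 and of Aa_G284130.h1 from -4.62 to 1.99. That of Aa_G35450.h1 was -0.11 with TPM-scale factors, -0.059 with those from targets of at least 300 bases and -0.0045 in DESeq2. That of Aa_G950580.h1 was -0.075 and -0.047 with the same factors. Aa_G284130.h1 was at 2.12 without both replicates 3, and with I_PZ replicate 3 out at 1.98 (RLE), 1.93 (TPM scale) and 2.05 (DESeq2). For all of these the cause was not tested.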
